A study of Mus musculus with 6 samples.

Results

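Transcripts of Kupffer cells and other macrophages were followed in RNA sequencing libraries of GFP-positive cells sorted from mouse embryo livers. The genes were taken by name, and the rule used no measured value. They are Cd5l, Clec4f, Vsig4, Marco, Timd4, Ptprc, Adgre1, C1qa, Csf1r and Cd68. All 10 were found by Ensembl identifier among the 52550 genes of the deposited table.

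Kupffer cells are the resident macrophages of the liver. They sit in the sinusoids, take up bacteria, dying cells and aged red cells with scavenger and complement receptors, and seed the liver before birth from progenitors of the yolk sac and fetal liver. Macrophages depend on the receptor CSF1R, which binds the growth factors CSF1 and IL34, and on the transcription factor PU.1 (Spi1). The fetal liver is also the main site of blood formation, so many other blood cells surround the developing bile ducts.

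The samples came from Sox9-GFP embryos of the CD-1 strain, in which GFP marks cells that express Sox9, a transcription factor of cholangiocytes, the epithelial cells of the bile duct. There were 3 libraries at E16 and 3 at E18, here named replicates A, B and C after the titles. The labels give embryonic day 16 and day 18, and the study's methods write E16.5 and E18.5 for the same samples. The libraries were made from total RNA of cells from pools of embryo livers. The study's methods do not state that each library had its own pool, so p-values measure the spread between libraries. All libraries carried the same reporter and no other treatment distinguished the stages. The livers were dissociated with collagenase and dispase, cells carrying blood lineage antigens (among them CD11b and Ly-6G/C) were removed on magnetic beads, and GFP-positive cells were collected by flow cytometry. In such bulk libraries, fewer macrophages and less RNA per macrophage cannot be told apart.

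Levels are given in TPM, a unit that divides the reads of a gene by its length and by the total of the library. The reads behind them, recovered from TPM and exon length, came to between 23193537 and 26206374 per library at E16 and between 13093937 and 22643868 at E18. Stages were compared with limma on log2(TPM + 1) over 22452 genes whose mean reached 1 TPM, and a gene was called at a Benjamini-Hochberg adjusted p under 0.05. The median log2 fold change of all genes tested was 0.42, and of 7000 genes called, 83.3% had the higher level at E18. After median-of-ratios scaling, which centres the libraries on each other, the median was 0.011 and 38.1% of the genes called were higher. A member's change is therefore to be read against a general shift of 0.42, though adding 1 TPM understates changes of low genes. The labelled cell type was checked on 11 cholangiocyte genes. Sox9, Krt19, Epcam and Spp1 each exceeded 20 TPM throughout.

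For 8 of the 10 genes, all but Csf1r and Cd68, replicate B of E18 was the highest library. Csf1r and Cd68, genes of macrophages in general, lay above 6 TPM in every library. The 5 genes that mark resident Kupffer cells, Cd5l, Clec4f, Vsig4, Marco and Timd4, stayed under 10 TPM with a single exception, Clec4f in replicate B of E18. Of the 10 genes, 8 reached the mean of 1 TPM needed for the test, and 2 of these rose from E16 to E18, Clec4f and Csf1r. A further gene, Cd68, had an unadjusted p of 0.0443. None fell, at the adjusted threshold or at an unadjusted p under 0.05. Over all genes tested, 26.0% were called higher and 5.22% lower, so the members' count is close to the background. After median-of-ratios scaling, no member was called by limma (2 had an unadjusted p under 0.05), where 6.44% of all genes were higher and 10.5% lower. In limma voom, none of the 6 tested members with recovered reads was called and 1 had an unadjusted p under 0.05. Csf1r and Adgre1 had no recovered reads and were absent from that fit. The median log2 fold change of the 8 members was 0.50 beside 0.42 for all genes.

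**Figure D1:**
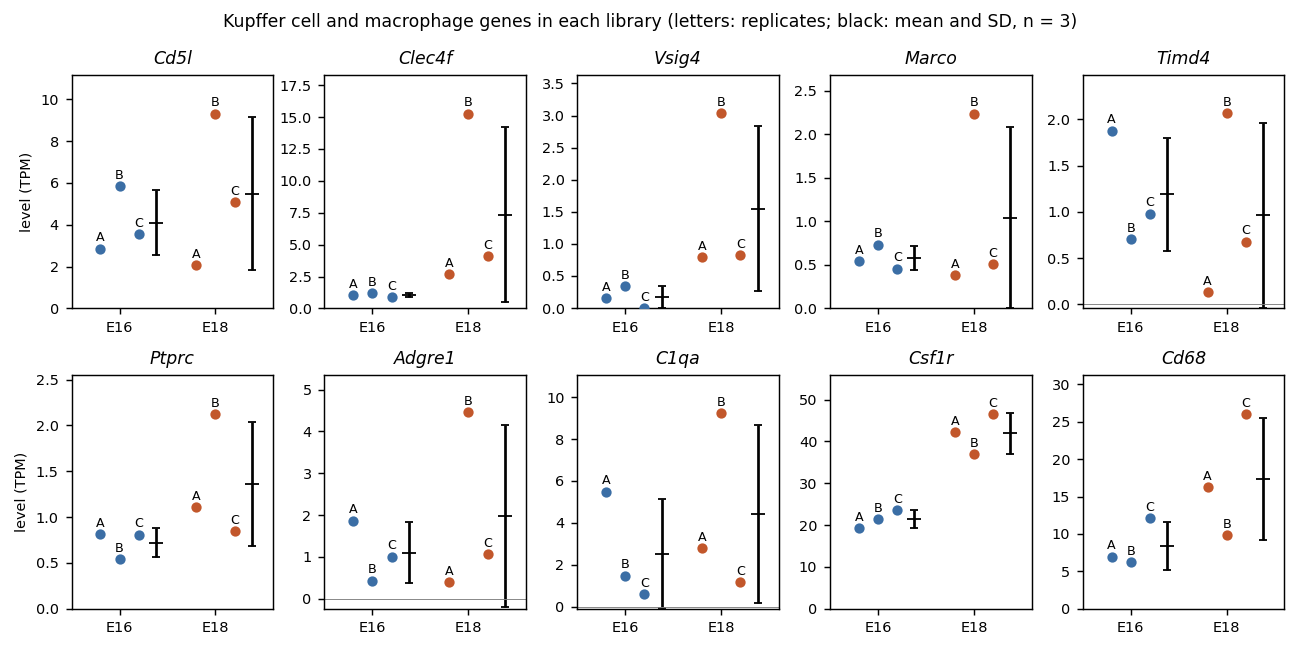
Level in TPM (vertical axes, a scale for each gene) of the 10 genes in the 3 libraries of each stage, with letters for replicates and black bars for the mean and SD (n = 3). Replicate B of E18 is the highest point in 8 panels, Clec4f reaching 15.3 TPM there, whereas Csf1r and Cd68 are highest in replicate C of E18.

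Clec4f encodes a galactose-binding C-type lectin that in the mouse liver is a defining marker of Kupffer cells (GRCm38, chr6:83644542-83656187, minus strand). Its level was 1.04, 1.19 and 0.913 TPM in replicates A to C of E16. In the E18 libraries, in the same order, it was 2.72, 15.3 and 4.09 TPM. Every E18 library was above every E16 library, and replicate B stood far above the other E18 libraries. Its counting interval met neither of theirs. From 193 reads, the 95% exact (Clopper-Pearson) interval of replicate B was 13.2 to 17.6 TPM, beside 1.99 to 3.63 TPM in replicate A and 2.93 to 5.54 TPM in replicate C. Such intervals cover counting error alone, because PCR copies of one molecule were not marked and each read is counted as independent. The mean rose from 1.05 ± 0.140 to 7.36 ± 6.89 TPM (SD, n = 3), a log2 fold change of 1.72 (SE 0.53, limma adjusted p = 0.0472). The call was lost without replicate B of E18, where the log2 fold change was 1.09 with an adjusted p of 0.0649 in limma and 9.46% of all genes were called higher. It was also lost when any other single library was left out (limma adjusted p between 0.05525 and 0.1149). The same held after median-of-ratios scaling (1.40, adjusted p = 0.103). It held in 4 of 15 alternative analyses by limma, with adjusted p between 0.0362 and 0.116, and the direction was the same in all 15.

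Cd5l encodes a secreted scavenger-receptor protein that tissue macrophages release into the blood (chr3:87357881-87371073, plus strand). It was the most abundant of the 5 Kupffer cell genes in each E16 library, at 2.86, 5.86 and 3.57 TPM, and was measured at 2.08, 9.32 and 5.08 TPM at E18. The stages overlapped, with replicate A the lowest and replicate B the highest library at each. The means were 4.10 ± 1.56 and 5.49 ± 3.64 TPM (SD, n = 3), and the log2 fold change of 0.23 (SE 0.46) did not pass the test (limma adjusted p = 0.721). Its sign turned without replicate B of E18 (-0.19). The ratio of Clec4f to Cd5l, which no scaling of a library can move, was 0.363, 0.204 and 0.256 at E16 and 1.31, 1.64 and 0.804 at E18. This pair was chosen after its values were seen, so the ratios carry no test. Clec4f was thus the lower of the pair in every E16 library, and the higher in replicates A and B of E18.

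Vsig4, also called CRIg, is a complement receptor with which Kupffer cells capture opsonised bacteria (chrX:96247203-96293438, minus strand). It was measured at 0.157, 0.346 and 0 TPM at E16, from 2, 4 and 0 reads, and at 0.788, 3.03 and 0.830 TPM at E18, from 8, 23 and 5 reads. Each E18 library lay above each E16 library, but a count of 0 in replicate C of E16 still allows 0.253 TPM (3 reads). Its mean over all libraries, 0.859 TPM, was below the filter. The exact two-sided permutation test gave p = 0.1, the smallest that 3 libraries against 3 can give, and without the filter limma gave a log2 fold change of 1.03 (SE 0.37, adjusted p = 0.128).

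Marco encodes a scavenger receptor for bacteria and particles (chr1:120474538-120505024, minus strand). Its level was 0.545, 0.733 and 0.456 TPM at E16 and 0.380, 2.24 and 0.512 TPM at E18. Apart from replicate B of E18, the libraries held between 4 and 11 reads each and could not be told apart at this depth. The exact permutation p was 0.9, and without the filter the log2 fold change was 0.26 (SE 0.37, limma adjusted p = 0.675).

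Timd4 encodes TIM-4, a phosphatidylserine receptor through which resident macrophages bind dying cells (chr11:46810800-46844332, plus strand). It was measured at 1.88, 0.708 and 0.981 TPM at E16 and at 0.135, 2.07 and 0.680 TPM at E18. Replicate A was the highest E16 library and the lowest E18 library, the latter from 2 reads. The log2 fold change of -0.24 (SE 0.45) did not pass the test (limma adjusted p = 0.687). Its sign turned without replicate A of E18 (0.089). Timd4 and Clec4f, both markers of resident Kupffer cells, thus had fold changes of opposite sign, a difference that was not tested.

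The sequences just upstream of these genes were searched for a motif of PU.1, a factor on which macrophages depend. RefSeq windows on GRCm38.p6 were found for 7 members on other chromosomes than that of Csf1r. The 250 bases before the start were searched on both strands for GAGGAA, which reads TTCCTC on the opposite strand and is the core of many sites bound by PU.1. Of the 7, 5 held it (Ptprc, Cd5l, Vsig4, Marco and Cd68) and Clec4f and Timd4 did not, beside 25.9% of 27025 genes with the motif in any of their windows. Ptprc has 2 windows, and 1 of them lacks the motif, so 5 of 8 member windows held it beside 23.3% of all 32851 windows. A match is a description of letters and does not show a bound site, nor does the lack of one bear on the factor. The windows of Cd5l (chr3:87357631-87357880, plus strand), Vsig4 (chrX:96293439-96293688, minus strand) and Marco (chr1:120505025-120505274, minus strand) are shown because these genes were highest in replicate B of E18 and hold the motif in a window outside their own annotated span. Clec4f and Timd4, without the motif, were also highest in that library. Cd68, which holds the motif outside its span, had its lowest E18 level there. A link between the motif and that library was not tested. The windows are written 5′ to 3′ along the gene, with the motif in capitals.
Cd5l: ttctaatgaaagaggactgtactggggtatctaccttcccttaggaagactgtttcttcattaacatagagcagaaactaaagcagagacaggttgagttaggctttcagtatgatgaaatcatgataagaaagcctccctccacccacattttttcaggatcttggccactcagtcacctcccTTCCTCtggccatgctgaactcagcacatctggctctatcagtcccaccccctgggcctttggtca
Vsig4: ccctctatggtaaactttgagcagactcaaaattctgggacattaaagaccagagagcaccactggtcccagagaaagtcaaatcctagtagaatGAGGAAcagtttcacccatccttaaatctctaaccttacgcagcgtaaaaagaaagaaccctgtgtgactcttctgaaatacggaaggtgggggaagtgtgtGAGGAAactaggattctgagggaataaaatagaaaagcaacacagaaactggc
Marco: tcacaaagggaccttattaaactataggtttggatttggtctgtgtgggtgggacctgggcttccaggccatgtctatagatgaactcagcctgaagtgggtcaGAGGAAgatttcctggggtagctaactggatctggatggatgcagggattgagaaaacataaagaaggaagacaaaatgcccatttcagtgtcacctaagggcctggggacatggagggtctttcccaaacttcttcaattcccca
The motif began at position -66 of Cd5l on the opposite strand, at -155 and -53 of Vsig4 and at -146 of Marco on the gene's strand. Spi1 itself, the gene of PU.1, was rare. Its mean was 0.953 ± 0.374 TPM at E16 and 1.17 ± 0.434 TPM at E18 (SD, n = 3), and the log2 fold change of 0.15 (SE 0.32) did not pass the test (limma adjusted p = 0.727).

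Ptprc encodes CD45, a phosphatase on the surface of nearly all white blood cells (chr1:138062861-138175708, minus strand). It stood at 0.815, 0.539 and 0.808 TPM at E16 and at 1.11, 2.13 and 0.847 TPM at E18. The stages did not overlap, though replicate C of E18 was only just above replicate A of E16. The log2 fold change of 0.42 (SE 0.32) equalled the median of all genes on this scale and did not pass the test (limma adjusted p = 0.332). With 0.1 TPM added in place of 1, it was 0.75 beside a median of 0.47 (limma adjusted p = 0.353). Ptprc, Clec4f, Vsig4 and Csf1r were the members whose E18 libraries all exceeded the E16 libraries. Of the 8 tested members 3 did so, beside 45.0% of all genes tested, and none had all E18 libraries below.

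Adgre1 encodes F4/80, the surface receptor by which mouse macrophages are commonly sorted (chr17:57358691-57483527, plus strand). Its level was 1.87, 0.435 and 1.004 TPM at E16 and 0.406, 4.46 and 1.06 TPM at E18. Replicate A at E16 and replicate B at E18 were high and the stages overlapped. The log2 fold change was 0.31 (SE 0.55, limma adjusted p = 0.676). Without replicate B of E18, the E18 mean was 0.734 TPM, below the E16 mean of 1.10 TPM.

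C1qa encodes a chain of C1q, the starting molecule of the classical complement pathway, which macrophages secrete (chr4:136895917-136898803, minus strand). It was measured at 5.49, 1.48 and 0.603 TPM at E16 and at 2.81, 9.22 and 1.18 TPM at E18. The spread within each stage exceeded the difference between stages, and the log2 fold change of 0.57 (SE 0.70) did not pass the test (limma adjusted p = 0.540). Without replicate B of E18 it was -0.035. The other chains lie beside it on chromosome 4. C1qb was measured at 1.18, 1.65 and 1.27 TPM at E16 and at 0.941, 11.3 and 4.98 TPM at E18, and C1qc at 0.423, 1.39 and 0.0649 TPM and then at 0.606, 4.15 and 0.893 TPM. The 3 chains were each highest in replicate B of E18, and limma called none of them, nor had any an unadjusted p under 0.05. Their levels in one library were unequal, C1qa being above C1qb in replicate A of each stage and below it in the 4 other libraries.

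Csf1r encodes the receptor for CSF1 and IL34, a tyrosine kinase on which macrophages depend (chr18:61100598-61132149, plus strand). It was the most abundant of the 10 genes in all libraries, with 19.4, 21.4 and 23.6 TPM at E16 and 42.3, 36.9 and 46.6 TPM at E18. All E18 libraries were above all E16 libraries, and replicate B was the lowest of E18. The mean rose from 21.5 ± 2.14 to 41.9 ± 4.83 TPM (SD, n = 3), a log2 fold change of 0.93 (SE 0.14, limma adjusted p = 0.0104). Without replicate B of E18 it was 1.02 (adjusted p = 0.0208). The call was made in 12 of 14 alternative analyses by limma and lost after median-of-ratios scaling (0.48, adjusted p = 0.134) and quantile normalization (0.59, adjusted p = 0.0647). Of its exon bases, 873 (15.1%) are shared with Hmgxb3, a gene on the opposite strand. Hmgxb3 was measured at 31.3, 31.6 and 23.7 TPM at E16 and at 53.4, 60.8 and 47.7 TPM at E18, with a log2 fold change of 0.89 (SE 0.16, limma adjusted p = 0.0134). The kit kept the strand, but whether the counting used it is not given in the sources used here, and the part of Hmgxb3 reads in the Csf1r values was not tested. Reads behind Csf1r and Adgre1 were not recovered, because their annotation versions differ from the one used for exon lengths, and so they have no counting intervals.

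Cd68 encodes macrosialin, a lysosomal membrane protein abundant in macrophages (chr11:69664213-69666153, minus strand). It was measured at 6.96, 6.22 and 12.1 TPM at E16 and at 16.3, 9.81 and 26.0 TPM at E18. Replicate C was the highest library of each stage, and replicate B of E18 was below replicate C of E16. The mean was 8.42 ± 3.18 TPM at E16 and 17.4 ± 8.18 TPM at E18 (SD, n = 3), with a log2 fold change of 0.92 (SE 0.38, limma adjusted p = 0.0987). The exact permutation p was 0.2.

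**Figure D2:**
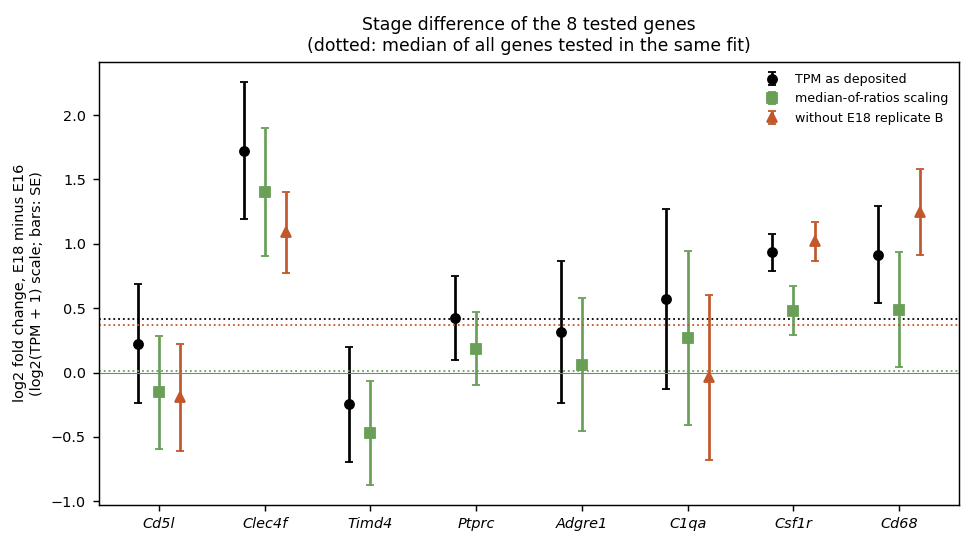
Log2 fold change, E18 minus E16, on the log2(TPM + 1) scale (vertical axis, bars: SE) of the 8 tested genes in 3 limma fits, with dotted lines for the median of all genes in the same fit. Clec4f lies at 1.72, 1.40 and 1.09 in the fits as deposited, after median-of-ratios scaling and without replicate B of E18, and Timd4, Ptprc and Adgre1 have no triangle because their mean fell below 1 TPM without that library.

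The order of the levels was compared in TPM, which is scaled by length. At E16, Csf1r exceeded 72.6% of protein-coding genes, Cd68 56.2% and Cd5l 48.5%, and at E18 they exceeded 81.4%, 63.6% and 47.9%. Clec4f moved from above 38.4% of protein-coding genes to above 50.7%, and Vsig4 from 23.4% to 38.3%. Without replicate B, the E18 shares were 44.4% for Clec4f and 33.9% for Vsig4. At E16, the libraries of Csf1r, Cd68 and Cd5l did not overlap along this order. Below them came C1qa, Timd4, Adgre1 and Clec4f, each overlapping its neighbours. Then came Ptprc, below Clec4f in every library, and Marco, which overlapped Ptprc and lay above Vsig4. At E18, Csf1r was above Cd68 in all libraries. Every neighbouring pair below it overlapped, in the order Cd68, Clec4f, Cd5l, C1qa, Adgre1, Vsig4, Ptprc, Marco and Timd4. Without replicate B of E18 the means of Cd5l (3.58 TPM) and Clec4f (3.40 TPM) changed places, and Adgre1 (0.734 TPM) came below Ptprc (0.978 TPM) and Vsig4 (0.809 TPM).

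Replicate B of E18 stood apart for these genes. It was the highest of the 6 libraries in 8 of the 10 members, and in 6 of the 8 tested, beside 45.2% of all genes tested. Among the tested members, Ptprc, Adgre1 and Timd4 had a mean below 1 TPM without this library, so counts over the tested lean on it. After median-of-ratios scaling replicate B of E18 was highest in 7 of the 10 and in 5 of the 8 tested, beside 15.7% of all genes. Relative to the mean of replicates A and C of E18, its level was 6.08 times as high for Adgre1, 5.09 for Timd4, 5.02 for Marco, 4.62 for C1qa, 4.49 for Clec4f, 3.75 for Vsig4, 2.60 for Cd5l and 2.17 for Ptprc. The same ratio was 0.831 for Csf1r and 0.463 for Cd68, and its median over all genes tested was 1.12. The summed level of the 8 members without Csf1r and Cd68 was 14.7, 11.3 and 8.34 TPM at E16 and 10.4, 47.7 and 14.3 TPM at E18. Without replicate B, the E18 sums thus lay within the range of E16. Csf1r and Cd68 made up 49.5% of the sum of all 10 in replicate B of E18 and between 64.2% and 84.9% in the other libraries.

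Genes of some other blood cells were also higher in replicate B than in the other E18 libraries. Lists of 12 neutrophil, 9 erythroid and 10 megakaryocyte genes were summed in each library. The neutrophil sum was 47.3, 58.02 and 23.9 TPM at E16 and 75.5, 265.2 and 83.6 TPM at E18. Limma called 5 of 10 tested genes higher, beside 26.0% of all genes tested. None was called after median-of-ratios scaling or without replicate B of E18 (5 at an unadjusted p under 0.05 in each). The same fit without replicate A of E18, or without replicate C of E16, also called none. Mpo, S100a8 and S100a9, proteins of neutrophil granules and cytosol, reached 45.7, 53.3 and 49.9 TPM in replicate B. The erythroid sum was 384.2, 415.4 and 323.2 TPM at E16 and 176.4, 695.1 and 248.2 TPM at E18. The megakaryocyte sum ranged from 3458 to 9974 TPM at E16 and was 92.5, 790.1 and 224.4 TPM at E18, and all 10 genes fell, Pf4, a platelet chemokine, with a log2 fold change of -4.90 (limma adjusted p = 0.0150). Among the neutrophil genes Ly6g, and no gene of the erythroid or megakaryocyte lists, was at 0 in a library. Relative to replicates A and C, the sums in replicate B of E18 were 3.33 times as high for neutrophil, 3.27 for erythroid and 4.99 for megakaryocyte genes, though none of the 10 megakaryocyte genes had its highest level of the 6 libraries there. The sums were 1.603 times as high for B lymphoid, 1.27 for mast cell and basophil and 1.23 for T and NK cell genes. They were 1.32 times as high for endothelial, 1.41 for cholangiocyte, 0.933 for mesenchymal and 0.468 for hepatoblast genes. The part of these cells in the macrophage values was not tested.

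**Figure D3:**
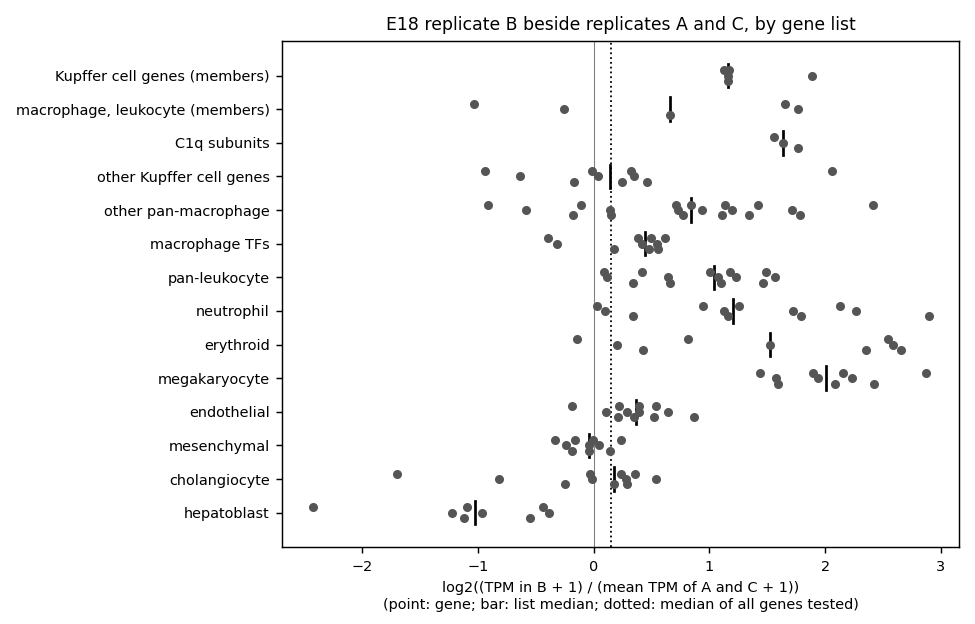
Log2 ratio of replicate B of E18 to the mean of replicates A and C, each with 1 TPM added (horizontal axis), for the genes of 14 lists, with a point for each gene, a bar for the list median and a dotted line at 0.149, the median of all genes tested. Points of the Kupffer cell genes, C1q, neutrophil, erythroid and megakaryocyte lists lie mostly to the right of the line and those of hepatoblasts to the left.

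The antibodies used for depletion recognise products of 7 listed genes. Of these 4 (Cd5, Itgam, Ly6c1 and Ly6c2) stayed under 1 TPM in every library, and limma called none of the 3 tested, which were also all above an unadjusted p of 0.05. Itgam, which encodes CD11b, lay between 0.0250 and 0.116 TPM at E16 and between 0.343 and 0.698 TPM at E18. Its E18 libraries were thus all above those of E16, at levels too low for the test.

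Other genes of the macrophage programme were followed in lists written for this purpose. The counts of these lists are to be read beside the 26.0% of all genes tested that were called higher and the 5.22% called lower. Of the CSF1 and myeloid growth factor axis, 7 of 8 genes were tested and 1 rose, Csf1r. The ligand Csf1 was measured at 14.4 ± 2.26 TPM at E16 and 16.4 ± 3.63 TPM at E18, and the ligand Il34 at 2.16 ± 0.138 and 3.57 ± 0.594 TPM (SD, n = 3), and neither passed the test in limma (adjusted p = 0.547 and 0.118). The list's median log2 fold change was 0.66. After median-of-ratios scaling limma called none of its genes, and 1 had an unadjusted p under 0.05.

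Of 10 macrophage transcription factors, 8 were tested, 2 rose and 1 fell, and their median was 0.20. Id3, which maintains Kupffer cells, rose from 6.24 ± 1.77 to 17.0 ± 2.25 TPM (SD, n = 3), a log2 fold change of 1.34 (SE 0.24, limma adjusted p = 0.0130). Maf rose from 4.31 ± 1.96 to 10.7 ± 2.82 TPM (1.18, SE 0.34, limma adjusted p = 0.0388), a call lost after median-of-ratios scaling and without replicate B of E18. Without replicate A of E18 limma called no factor of this list higher. Runx1, a factor of blood stem cells and megakaryocytes as well as macrophages, fell from 17.1 ± 8.47 to 3.07 ± 1.37 TPM (-2.11, SE 0.40, limma adjusted p = 0.0144). Id3 and Maf are also expressed outside macrophages, and these fold changes are of all sorted cells together.

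Of 10 other genes known in Kupffer cells, 6 were tested, 2 rose and 1 fell, with a median of 0.68. Slc40a1, the iron exporter ferroportin, was measured at 73.0, 77.6 and 65.6 TPM at E16 and at 166.8, 153.7 and 132.1 TPM at E18. It rose by a log2 fold change of 1.05 (SE 0.13, limma adjusted p = 0.00822), also after median-of-ratios scaling and without replicate B. Axl, a receptor kinase for dying cells, rose from 8.58 ± 4.08 to 20.3 ± 7.43 TPM (1.17, SE 0.36, limma adjusted p = 0.0476), a call lost in both of those fits. When any single library but replicate A of E16 was left out, limma called 1 gene of this list higher. Mertk, a kinase of the same family, was measured at 24.5, 23.4 and 23.6 TPM at E16 and at 13.3, 13.9 and 18.3 TPM at E18. It fell by 0.63 on the log2 scale (SE 0.16, limma adjusted p = 0.0261), a call lost when any single library but replicate C of E18 was left out. Neither Slc40a1 nor Mertk was highest in replicate B of E18, and which of the sorted cells held their transcripts was not tested. The scavenger receptor Cd163 stayed between 0.0939 and 0.573 TPM.

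Of 19 other pan-macrophage genes, 14 were tested, 2 rose and 1 fell, with a median of 0.89. Cd14, the co-receptor for bacterial lipopolysaccharide, was measured at 6.83, 3.59 and 1.76 TPM at E16 and at 31.1, 19.2 and 27.6 TPM at E18. Its log2 fold change was 2.51 (SE 0.39, limma adjusted p = 0.0105), and replicate B was the lowest of E18. Which of the sorted cells held Cd14 transcripts was not tested. Cd74, the invariant chain of antigen presentation, named after its values were seen, rose from 0.581 ± 0.434 to 7.90 ± 5.54 TPM (2.37, SE 0.46, limma adjusted p = 0.0151) and was highest in replicate B. Fcer1g, a signalling chain of Fc receptors that platelets also hold, fell from 18.8 ± 10.7 to 2.52 ± 1.70 TPM (-2.46, SE 0.45, limma adjusted p = 0.0139). Lyz2, lysozyme, was measured at 61.1 ± 22.8 TPM at E16 and 23.3 ± 18.2 TPM at E18 and did not pass the test (-1.53, limma adjusted p = 0.0552), though it did so as lower after median-of-ratios scaling and without replicate B. Lyz2 has a near copy, Lyz1, with which it may share reads. The mannose receptor Mrc1 was measured at 9.22 ± 5.44 and 14.7 ± 6.002 TPM and was not called (limma adjusted p = 0.270).

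**Figure D4:**
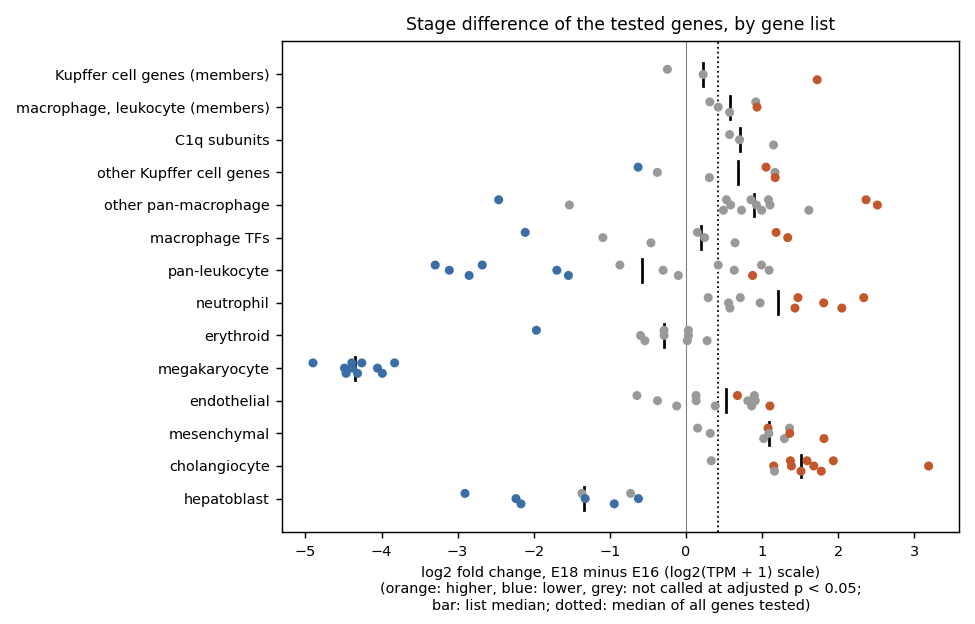
Log2 fold change, E18 minus E16, on the log2(TPM + 1) scale (horizontal axis) of the tested genes of 14 lists, with orange points for genes called higher, blue for lower and grey for not called, a bar for each list median and a dotted line at 0.42, the median of all genes tested. Coloured are 3 of 6 other Kupffer cell genes, 3 of 8 macrophage transcription factors and 3 of 14 other pan-macrophage genes. Each list of members holds 1 coloured point and the C1q list holds none. Over all genes tested, 31.2% were called. All 10 megakaryocyte genes are blue and 9 of 11 cholangiocyte genes are orange.

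Of 14 pan-leukocyte genes, Ptprc included, all were tested, 1 rose and 6 fell, and the median log2 fold change was -0.58. The actin regulator Coro1a was measured at 111.0, 68.5 and 195.4 TPM at E16 and at 4.99, 23.9 and 9.82 TPM at E18. It fell by 3.29 on the log2 scale (SE 0.56, limma adjusted p = 0.0122). Laptm5, Vav1 and Was had log2 fold changes of -2.85, -2.68 and -3.11, with limma adjusted p between 0.0110 and 0.0144. The means of these 4 genes at E16 ran from 32.8 to 124.9 TPM, beside 0.721 TPM for Ptprc. They fell between the same stages as the megakaryocyte genes, and the part of megakaryocytes in them was not tested. The gene that rose, Lcp1, encodes an actin-bundling protein and went from 3.77 ± 1.004 to 7.63 ± 0.689 TPM (SD, n = 3), a call lost after median-of-ratios scaling and without replicate B of E18. The call was also lost without replicate A of E18 and without replicate B or C of E16.

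Genes of neighbouring classes were counted in the same way. Of 8 monocyte genes 4 were tested and 1 rose, Fn1, fibronectin, which hepatic cells also make and which was measured at 2579 ± 318 TPM at E16 and 5950 ± 873 TPM at E18. Its call was lost after median-of-ratios scaling (0.74, limma adjusted p = 0.0945). Of 14 lysosomal genes used by many cell types, 5 rose and 2 fell, with a median of 0.19. After median-of-ratios scaling limma called none higher and 4 lower, with a median of -0.27 (8 genes in all had an unadjusted p under 0.05). Psap, the precursor of lysosomal saposins, rose by a log2 fold change of 0.67 and the protease Ctsb fell by 0.53 (limma adjusted p = 0.0210 and 0.0184). The call of Psap was lost after that scaling and without replicate B of E18. Without replicate A of E18, limma called 1 lysosomal gene higher. Cd68, itself lysosomal, was measured at 12.9 TPM over all libraries, beside a range of 1673 to 1986 TPM for the sum of that list.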

How the data were processed

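RNA was measured in 6 libraries of sorted GFP-positive cells, 3 per stage, grouped by the stage and title of the sample labels. After quality control (FastQC 0.11.7) and trimming (Trimmomatic), the authors mapped reads to GRCm38 with HISAT2 2.1.0, used HTSeq 0.5.4p3 and a GENCODE annotation for counts per gene, and turned the counts into TPM. Whether the counting used the strand is not given in the sources used here. The deposited TPM sum to 1000000 per library, and no column was left out.

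GENCODE vM21 on GRCm38 supplied symbols, exon lengths and places, and 52403 identifiers matched and 147 did not. For recovered reads, the product of TPM and exon length was divided by the value of 1 read, and all 180057 nonzero values of the 49035 genes with an identical version were whole within 0.01. They served for depth and for 95% exact intervals, and deeper libraries have narrower ones. Libraries of a stage differed by a chi-square of 17.1 or more per degree of freedom, so none was a copy.

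The test between stages was limma 3.58.1 (R 4.3.3, eBayes with trend) on log2(TPM + 1), for genes whose mean reached 1 TPM. This scale understates changes of low genes. Exact two-sided permutation tests used Python 3.11.15. On simulated libraries with 200 changed genes, 90% of 4-fold and 23% of 2-fold changes were recovered (78.3% and 18.2% under 10 TPM), so a 2-fold change of a rare transcript is often missed. There were 15 false calls. The simulated spread between libraries, beyond counting error, was the same for all genes and smaller than that of Clec4f, Adgre1 and Marco at E18. It was also smaller than that of Timd4, C1qa, Vsig4, Ptprc, Cd5l and Cd68 at E18. For Cd5l, C1qa and Cd68 the E18 SD was 3.64, 4.25 and 8.18 TPM on means of 5.49, 4.40 and 17.4 TPM. No changed gene had a mean as low as those of Ptprc, Adgre1, Timd4, Vsig4 and Marco. The shares recovered therefore do not carry over to these members, Clec4f, Cd5l, C1qa and Cd68 included.

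The members and gene lists were chosen with earlier results of these data known. Named were all members, the called genes (at most 6 a list, largest fold first) of the CSF1 axis, transcription factor, C1q and other Kupffer cell lists, the 4 most abundant of the pan-macrophage, pan-leukocyte, monocyte and depletion lists at most, and up to 3 of any other list. Csf1, Il34, Spi1, C1qb, C1qc, Cd74, Cd163, Lcp1, Itgam, Ly6c1, Ly6c2 and Hmgxb3 were named after their values were seen. Some genes of the lists are not reported by name. The 16 alternative analyses changed the pseudocount, filter, scaling, eBayes settings, replicate block or libraries, or used recovered reads (limma voom, or thinned to the smallest library). Counts of the lists under these alternatives, and of the library that was highest after scaling, were added after seeing the data.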

Additional observations from a re-analysis of the deposited data

How the results depend on the processing

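The number of the 10 genes called higher at E18 was 2 and went to 0 after scaling by median of ratios, after quantile normalization and in limma voom, and to 1 without the filter, with a mean of at least 5 TPM, without the eBayes trend and with reads thinned to the smallest library. Leaving out 1 library gave 1 in every case, always Csf1r. Csf1r and Adgre1 have no recovered reads, so they are missing from the voom and thinned analyses, and at least 5 TPM leaves Csf1r and Cd68. A pseudocount of 0.1 and robust eBayes gave 2. Under the 16 alternatives limma called no member lower. The sign turned for Cd5l after median-of-ratios scaling (-0.15), quantile normalization (-0.19) and without replicate B of E18 (-0.19), for Timd4 without replicate A of E18 (0.089), and for C1qa without replicate B of E18 (-0.035). Without single libraries, Cd5l reached 0.68 (without replicate A of E18), Timd4 -0.41 (without replicate B of E16) and C1qa 1.14 (without replicate A of E16). Timd4 was -0.71 with a pseudocount of 0.1 and -1.12 in limma voom. None of these was called in either direction, and the cause was not tested. Cd68 ranged from 0.49 to 1.25. Vsig4 and Marco were below the filter and have a value without it, with thinned reads and, for Vsig4, without replicate C of E16 (0.92, limma adjusted p = 0.224). Same-lettered libraries of the stages correlated at -0.043, 0.081 and 0.14 in their deviations from the stage means, so the letters were not taken as pairs. With the letters as a replicate block, 3 members were called higher, Cd68 being added (limma adjusted p = 0.0244), and 7314 genes in all beside 7000. All genes called numbered 3795 after median-of-ratios scaling, 3784 after quantile normalization, 4282 without the filter, 1472 without replicate A of E18 and 2917 without replicate B of E18. Leaving out replicate A, B or C of E16 gave 4376, 4783 and 4082, and leaving out replicate C of E18 gave 5686. Each fit without a library thus called fewer genes than the main fit. Whether a call lost in such a fit depends on that library or on the smaller number of libraries was not tested. Depth limits the rarest members, with 0 to 23 reads per library for Vsig4 and 4 to 22 for Marco.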

Other observations

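Transcripts of other blood cells were counted in the same libraries. Over all genes tested, limma called 26.0% higher and 5.22% lower. After median-of-ratios scaling the shares were 6.44% and 10.5%, and without replicate B of E18 9.46% were called higher. Of 11 genes of B lymphoid cells, 9 were tested and 4 rose from E16 to E18, with a median log2 fold change of 0.80. Vpreb3, part of the precursor B cell receptor, was measured at 1.90, 4.78 and 2.92 TPM at E16 and at 8.51, 7.74 and 5.73 TPM at E18 (limma adjusted p = 0.0415). Ebf1, a transcription factor of early B cells, was measured at 1.32, 0.907 and 0.681 TPM and then at 3.15, 3.99 and 4.04 TPM (limma adjusted p = 0.0169). After median-of-ratios scaling the list had 2 calls. Without replicate B of E18 limma called none of it, and 4 genes had an unadjusted p under 0.05. Of 8 T and NK cell genes 2 were tested, 1 of which rose and 1 fell (the rise was lost after median-of-ratios scaling, and without replicate B of E18 the gene was below the filter), and of 6 mast cell and basophil genes 2 were tested and limma called neither, though both had an unadjusted p under 0.05 and limma voom called 1. The erythroid list had 1 call among 9 tested genes, lower, and 4 lower calls without replicate B of E18.

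Cells of the liver tissue were counted too. Of 12 endothelial genes 2 rose, with a median of 0.53. After median-of-ratios scaling limma called none higher and 1 lower (3 in all at an unadjusted p under 0.05), with a median of 0.092, and without replicate B of E18 it called none (2 at an unadjusted p under 0.05). Stab2, a receptor of sinusoidal endothelium, was measured at 50.9, 32.7 and 15.4 TPM at E16 and at 39.2, 68.7 and 65.1 TPM at E18 and was not called (limma adjusted p = 0.137). Of 9 tested mesenchymal genes 3 rose, with a median of 1.09, and 1 was called after median-of-ratios scaling and 1 without replicate B of E18. Of 11 cholangiocyte genes 9 rose, with a median of 1.51, whereas 4 were called after median-of-ratios scaling and 3 without replicate B of E18. Of 8 hepatoblast genes 6 fell, with a median of -1.35.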
